A study of Homo sapiens with 27 samples.

Results

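Small RNA was compared between USB1 mutant hESCs carrying short hairpins against PAPD5 (USB1 mutant shPAPD5) and wild-type (WT) hESCs. The comparison covers 6 of the 27 samples of the series, with 3 libraries per group, and every mature miRNA listed in the deposited tables of both groups. These were 1437 of the 2067 miRNAs listed in any of the hESC tables. All cells are of the H1 line of human embryonic stem cells (hESCs), an established line that the study grew undifferentiated in a defined medium on Matrigel or on mouse feeder cells. The USB1 mutant carries a loss-of-function deletion of a base in USB1, made by CRISPR/Cas9, and its clones were picked by hand. The shPAPD5 cells are that mutant with PAPD5 hairpins in a MIR30-based cassette, placed at the AAVS1 locus with a zinc finger nuclease. WT cells carry neither the mutation nor a hairpin, so the mutation and the hairpins cannot be told apart in this comparison. The USB1 mutant without a hairpin (3 libraries) is therefore given beside it for many of the miRNAs described. No hESC group has a control hairpin by its label, so PAPD5 depletion and other effects of a hairpin cassette cannot be told apart either. Differences between clones, or from the repeated engineering of the line, cannot be told apart from these. The study calls its replicates of WT and USB1 mutant hESCs in miRNA sequencing biological ones, but no source used here tells if the 3 libraries of a group are of separate cultures, so p-values measure only the spread between these libraries, part of which may be technical.

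miRNAs are short RNAs, cut from hairpin precursors by Drosha and Dicer, that guide Argonaute proteins to messenger RNAs through bases 2 to 8 of the guide, the seed. Each hairpin can give an arm from its 5′ side (5p) and an arm from its 3′ side (3p), and the tables count them separately. USB1 is a 3′ to 5′ RNA exonuclease known for trimming the end of U6 small nuclear RNA, and its loss causes poikiloderma with neutropenia. PAPD5 is a noncanonical poly(A) polymerase, which extends RNA at the 3′ end with adenosines. Enzymes of both kinds act on RNA ends and can change how long an RNA lasts. In hESCs the miRNA pool is dominated by a few families, among them the miR-302 cluster, which is known for sustaining pluripotency.

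The miRNAs on which the comparison turns are shown first. The 6 at the top of the following lines were lower in value in USB1 mutant shPAPD5 hESCs than in WT, miR-125a-5p shares its seed with one of them and had a like level in both groups, and the last 2 were higher in value. Capitals mark the seed. The sequences are those of RefSeq (GRCh38.p14), in which 1277 of the 1437 miRNAs and 889 of the 998 tested ones were matched.
miR-125b-5p: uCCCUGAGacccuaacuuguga
miR-199a-3p: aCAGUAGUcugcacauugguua
miR-200b-3p: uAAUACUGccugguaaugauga
miR-429: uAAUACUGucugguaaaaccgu
miR-503-5p: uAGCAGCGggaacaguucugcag
miR-653-5p: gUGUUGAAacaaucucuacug
miR-125a-5p: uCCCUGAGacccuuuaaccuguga
miR-105-5p: uCAAAUGCucagacuccuguggu
miR-767-5p: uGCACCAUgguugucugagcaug

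Of these, miR-200b-3p and miR-429 have the same seed, AAUACUG, which miR-200c-3p also carries, and the 2 miR-125 species share CCCUGAG. The other 5 seeds differ from one another. miR-125b-5p is made from 2 loci, an intron of MIR100HG at chr11:122099809-122099830 (minus strand) and an exon of MIR99AHG at chr21:16590253-16590274 (plus strand), while miR-125a-5p lies in an intron of SPACA6 at chr19:51693268-51693291 (plus strand). miR-199a-3p comes from chr1:172144554-172144575 and chr19:10817429-10817450 (both minus strand) and is identical in sequence to miR-199b-3p, so the reads of the 2 cannot be told apart. Hosts are those of GENCODE 44 on the same strand.

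The 6 libraries held 12258450 to 18793438 miRNA counts, and the 10 most abundant miRNAs took 79.19 to 82.88% of them. WT library 1 stood apart from the other WT libraries before any comparison: its Spearman correlation was 0.947 with WT library 2 and 0.945 with WT library 3, against 0.976 between those 2. Of 427 miRNAs with a mean of at least 8 CPM (counts made comparable between libraries of unequal depth, here with TMM factors), 29 were at over 2 times the mean of the other 2 in WT library 1 and 26 were at under 0.5 times that mean. Values without WT library 1 are given beside many of the results. USB1 mutant library 1 stood apart from its group too. Its Spearman correlation was 0.948 with mutant library 2 and 0.939 with mutant library 3, against 0.975 between those 2. Values of the mutant include that library unless stated. The 8 marker miRNAs of pluripotent stem cells were all listed for both groups and took 22.2% of the summed level in USB1 mutant shPAPD5 hESCs and 18.8% in WT. Their sums overlapped, at 191885 to 228884 CPM in USB1 mutant shPAPD5 hESCs and 180677 to 196046 CPM in WT. By edgeR, 3 of the 8 were lower at an unadjusted p under 0.05 and 0 higher. The 3 were miR-371a-5p, miR-372-3p and miR-373-3p, whose lower values came from WT library 1, as described below. Without that library the median log2 change of the 6 tested members of their cluster was 0.19. The 8 leave out miR-302a-5p, which had a log2 change of −0.29. Messenger RNAs are outside this assay, so the levels of USB1 and PAPD5 were not analysed here.

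Across the 998 miRNAs with enough counts for a test, 0 were called between USB1 mutant shPAPD5 and WT hESCs by edgeR's quasi-likelihood test at an adjusted p under 0.05 (0.0%). The lowest adjusted p was 0.0509. At an unadjusted p under 0.05, 57 were higher (5.71%) and 73 were lower (7.31%). All 3 USB1 mutant shPAPD5 libraries lay above all 3 WT libraries for 93 miRNAs (9.32%) and below them for 100 (10%), which is called separation below. Counts of separated members of a list are to be read beside these 2 shares. DESeq2, the alternative tool, called 3 miRNAs higher (0.336%) and 24 lower (2.69%) among the 892 for which it gave an adjusted p. The median log2 change was 0.01 and the median size of a change 0.29, and 90% of the miRNAs lay between −0.90 and 0.88. The 439 members without a test had summed counts of 2 to 715 over the 6 libraries, with a median of 17.

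**Figure D1:**
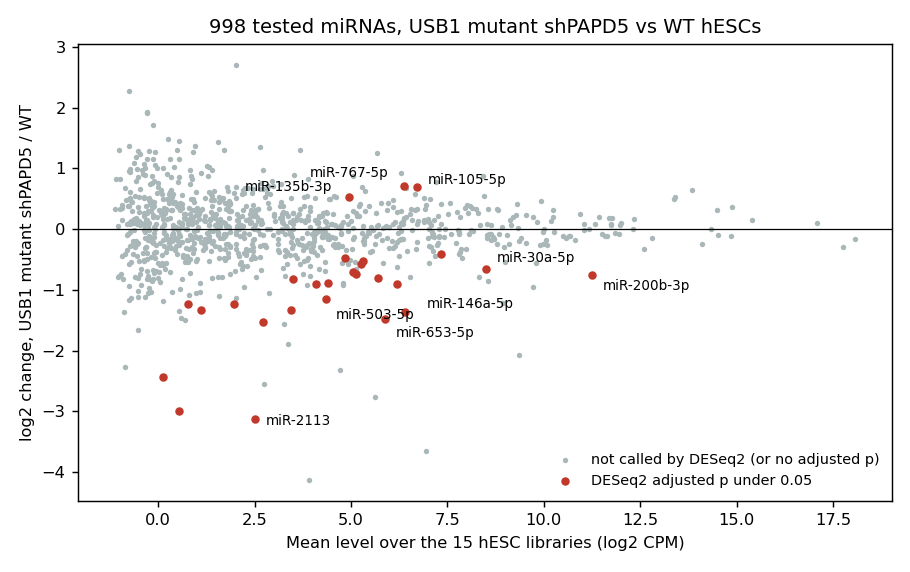
Each point is 1 of the 998 tested miRNAs, with its mean level over the 15 hESC libraries in log2 CPM on the x axis and its log2 change between USB1 mutant shPAPD5 and WT hESCs on the y axis. The 27 miRNAs called by DESeq2 are red, 3 of them above 0 and 24 below, and edgeR called 0.

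How far a difference could be seen depended on the level. The median distance from the log2 change to the bound of its 95% interval was 0.92 for the 571 miRNAs under 8 CPM, 0.51 for the 283 between 8 and 128 CPM and 0.41 for the 144 above. A change of 2-fold or more in value was measured for 76 miRNAs, 62 of which were under 8 CPM. Only 2 of the 144 abundant miRNAs reached it. Among them was miR-372-3p, whose value came from WT library 1, as described below.

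The study followed 5 miRNAs of hematopoiesis, of which 4 had enough counts for a test. The study followed them as miRNAs reduced in USB1 mutant against WT cells, in hESCs or in hematopoietic progenitors. The shPAPD5 cells carry that mutation, so these miRNAs are no independent evidence of a direction. miR-125b-5p, a homolog of worm lin-4 that acts in blood stem cells, had 19.3, 15.5 and 19.5 CPM in USB1 mutant shPAPD5 hESCs, against 44.6, 28.7 and 26.8 CPM in WT. All 3 shPAPD5 libraries lay below all 3 WT libraries, and WT library 1 was the highest. The log2 change was −0.88 (SE 0.22, 95% interval −1.35 to −0.42, edgeR adjusted p = 0.0803). Over the alternative settings the adjusted p ran from 0.00576 with DESeq2 to 0.431 without WT library 1, where the log2 change was −0.62. The USB1 mutant without a hairpin had 16.4, 15.1 and 15.7 CPM, and the log2 change of the shPAPD5 cells from it was 0.20 (95% interval −0.26 to 0.66).

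miR-199a-3p, best known from mesenchymal cells, had 17.3, 12.5 and 17 CPM in USB1 mutant shPAPD5 hESCs, against 40.1, 21.6 and 25.5 CPM in WT. Here too the groups did not overlap. Its log2 change was −0.90 (SE 0.24, edgeR adjusted p = 0.0998, 0.018 to 0.558 over the alternatives), and −0.60 without WT library 1. The USB1 mutant had 15.3, 12.2 and 13.9 CPM.

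miR-125a-5p, with the same seed as miR-125b-5p, had 293, 196 and 206 CPM in USB1 mutant shPAPD5 hESCs, against 257, 234 and 213 CPM in WT. The ranges overlapped, and the log2 change was −0.02 (95% interval −0.42 to 0.38) and 0.05 without WT library 1. miR-142-5p, a miRNA of blood cells, had 25, 11 and 16 raw counts in USB1 mutant shPAPD5 libraries, against 83, 18 and 17 in WT, so its log2 change of −1.03 rested on WT library 1 and was −0.07 without it. miR-223-3p, which marks myeloid cells, had 7, 9 and 9 raw counts in USB1 mutant shPAPD5 libraries and 4, 5 and 2 in WT libraries, too few for a test.

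The opposite arms of these miRNAs gave 5 tested members, 1 of which was separated below WT, against 10% of all tested miRNAs. miR-125b-2-3p had 2.37, 1.32 and 1.61 CPM in USB1 mutant shPAPD5 hESCs, against 3.85, 2.78 and 4.37 CPM in WT, a log2 change of −1.05 (95% interval −1.95 to −0.16, edgeR adjusted p = 0.300). The log2 changes of the other 4 ran up to 0.10, and the median of the 5 was −0.19. Without WT library 1 that median was −0.07, and miR-142-3p, at −0.37 with all libraries, was at 0.57.

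**Figure D2:**
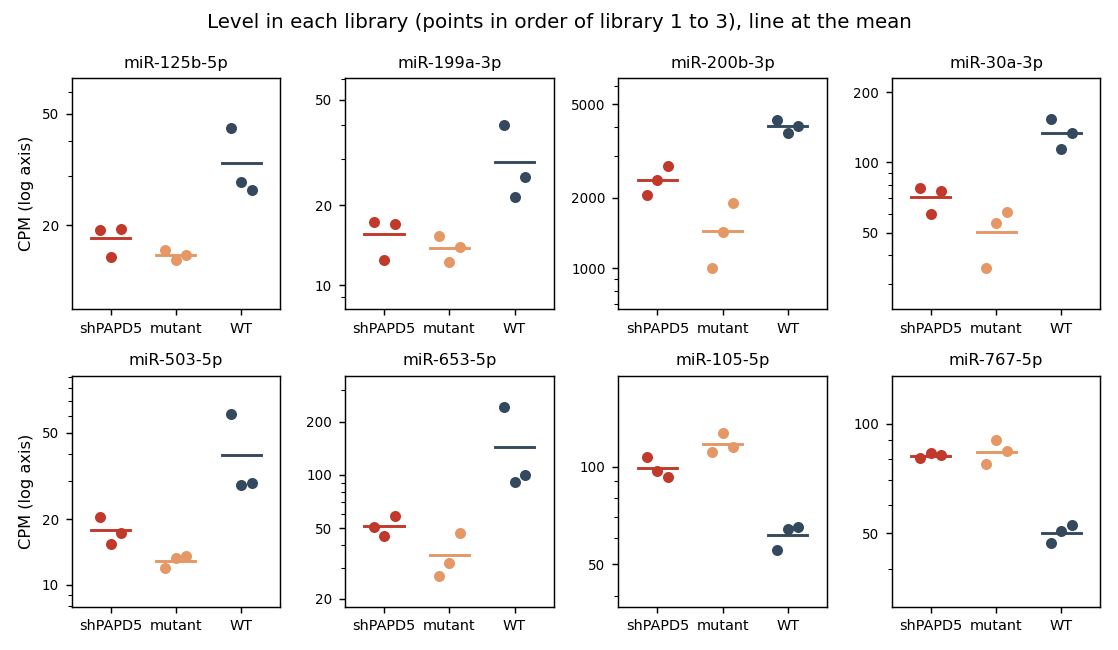
Each panel shows the CPM of 1 miRNA on a log axis in the 3 libraries of USB1 mutant shPAPD5, USB1 mutant and WT hESCs, with a line at the mean. For the 6 miRNAs from miR-125b-5p to miR-653-5p every shPAPD5 library lies below every WT library, and for miR-105-5p and miR-767-5p every one lies above.

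The miR-200 family, which represses ZEB1 and ZEB2 and is known for keeping epithelial cells in their state, lay below WT in most of its members. All 9 members were tested. Their log2 changes ran from −0.92 to −0.01, with a median of −0.42, against 0.01 over all tested miRNAs. Of the 9, 7 were separated below WT and 0 above, against 10% and 9.32% of all tested miRNAs. miR-200b-3p, the member with the most counts in WT cells, had 2054, 2390 and 2727 CPM in USB1 mutant shPAPD5 hESCs, against 4304, 3790 and 4041 CPM in WT. Its highest shPAPD5 library was below the lowest WT library, and WT library 1 did not stand apart here. The log2 change was −0.76 (SE 0.20, edgeR adjusted p = 0.0998, 0.018 to 0.409 over the alternatives) and −0.72 without WT library 1.

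In the USB1 mutant, miR-200b-3p had 1003, 1427 and 1907 CPM, so all 3 shPAPD5 libraries lay between the mutant and the WT libraries. The log2 change of the shPAPD5 cells from the mutant was 0.73 and was not called by edgeR (adjusted p = 0.216), while DESeq2 called it (adjusted p = 0.0496), as did edgeR with library totals as the scaling. miR-429, made from the same cluster on chromosome 1, showed the same order, with 184, 156 and 170 CPM in USB1 mutant shPAPD5 hESCs, 132, 111 and 121 CPM in the mutant and 220, 236 and 224 CPM in WT. Its log2 change was −0.42 against WT and 0.48 against the mutant, where edgeR did not call it (adjusted p = 0.233) and DESeq2 did (adjusted p = 0.0205).

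The hairpins of miR-200b, miR-200a and miR-429 lie within a stretch of chromosome 1 whose mature arms run from base 1167124 to base 1169076 (plus strand). Their other arms had lower values in USB1 mutant shPAPD5 hESCs as well, with log2 changes of −0.92 for miR-200b-5p, −0.79 for miR-200a-5p and −0.47 for miR-200a-3p, each separated from WT. The members of the second cluster, on chromosome 12, were nearer 0. miR-200c-3p, with the seed of miR-200b-3p, had 3037, 3445 and 3229 CPM in USB1 mutant shPAPD5 hESCs, against 3466, 3476 and 3566 CPM in WT, a log2 change of −0.11 (95% interval −0.38 to 0.16).

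Both arms of the miR-30a hairpin, in an intron of LINC00472 on chromosome 6, were lower in value. miR-30a-3p had 78.0, 60.0 and 75.6 CPM in USB1 mutant shPAPD5 hESCs, against 153, 114 and 133 CPM in WT, and miR-30a-5p had 411, 359 and 386 CPM, against 691, 543 and 593 CPM in WT. Neither arm overlapped between the groups. The log2 changes were −0.91 (SE 0.20, edgeR adjusted p = 0.0509) for the 3p arm and −0.66 (SE 0.18, edgeR adjusted p = 0.121) for the 5p arm, and they were −0.80 and −0.56 without WT library 1. The USB1 mutant without a hairpin differed from WT by log2 changes of −1.40 for the 3p arm and −1.17 for the 5p arm. The 11 tested miR-30 members had a median of −0.29. Of them, 5 were separated below WT and 1 above, against 10% and 9.32% of all tested miRNAs. miR-30d-5p, an abundant relative, had a log2 change of 0.01 (95% interval −0.37 to 0.39) and of −0.11 without WT library 1.

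miR-503-5p belongs to the extended miR-15/16 family, whose members repress cell cycle genes. It had 20.5, 15.5 and 17.4 CPM in USB1 mutant shPAPD5 hESCs, against 60.7, 28.7 and 29.5 CPM in WT. The groups did not overlap, although WT library 1 was about 2 times the other WT libraries. The log2 change was −1.16 (SE 0.26, edgeR adjusted p = 0.0509, 0.00291 to 0.379 over the alternatives) and −0.71 without that library. For the USB1 mutant against WT, the log2 change of miR-503-5p was −1.62. miR-450b-5p, whose gene is also on chromosome X, had 41.8, 42.4 and 31.9 CPM in USB1 mutant shPAPD5 hESCs and 59.1, 54.6 and 54.1 CPM in WT. Over the whole family of 12 tested members the median was −0.10 (−0.20 without WT library 1). In it 5 were separated below WT and 1 above, against 10% and 9.32% of all tested miRNAs.

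The 3 miRNAs in introns of CALCR, the calcitonin receptor gene on chromosome 7, had the lowest median of the lists apart from the miR-371 to miR-373 cluster. miR-653-5p had 50.9, 45.0 and 58.4 CPM in USB1 mutant shPAPD5 hESCs, against 241, 91.6 and 99.4 CPM in WT. miR-653-3p, its opposite arm, had 10.2, 9.30 and 10.6 CPM, against 41.8, 16.7 and 17.1 CPM in WT. miR-489-3p, from a hairpin beside it, had 5.76, 5.66 and 5.21 CPM, against 26.9, 10.3 and 10.5 CPM in WT. All 3 were separated below WT, against 10% of all tested miRNAs, and WT library 1 was more than 2-fold above the other WT libraries. The log2 changes were −1.48, −1.33 and −1.52 in that order (edgeR adjusted p = 0.0509, 0.0779 and 0.0779), and −0.89, −0.76 and −0.91 without WT library 1. The median of the 3 was −1.98 in the USB1 mutant against WT, and 0.46 in the shPAPD5 cells against the mutant.

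The 4 miRNAs in introns of GABRA3, a GABA receptor subunit gene on chromosome X, lay the other way. miR-105-5p, which is made from 2 identical copies, had 107, 97.0 and 92.9 CPM in USB1 mutant shPAPD5 hESCs, against 55.4, 64.2 and 64.9 CPM in WT. miR-767-5p, from the hairpin between those copies (chrX:152393481-152393503, minus strand), had 80.4, 83.0 and 81.9 CPM, against 47.2, 50.7 and 52.6 CPM in WT. The spread within each group was small beside the gap, and WT library 1 was not far from the other WT libraries.

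The log2 change was 0.69 for miR-105-5p (SE 0.15, edgeR adjusted p = 0.0509, 0.002 to 0.302 over the alternatives) and 0.70 for miR-767-5p (SE 0.14, edgeR adjusted p = 0.0509, 6.45e-06 to 0.219). These were the 2 miRNAs that edgeR called, both higher, when only the 425 miRNAs with at least 10 CPM in 3 libraries were tested. Their opposite arms were rarer, with a log2 change of 0.67 for miR-105-3p, whose groups did not overlap, and of 0.26 for miR-767-3p, whose groups did. Against the USB1 mutant, the shPAPD5 cells differed by −0.25 for miR-105-5p and by −0.04 for miR-767-5p, with 95% intervals that held 0 for both. The median of the 4 was 0.68 against WT, with 3 of 4 separated above it, against 9.32% of all tested miRNAs.

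**Figure D3:**
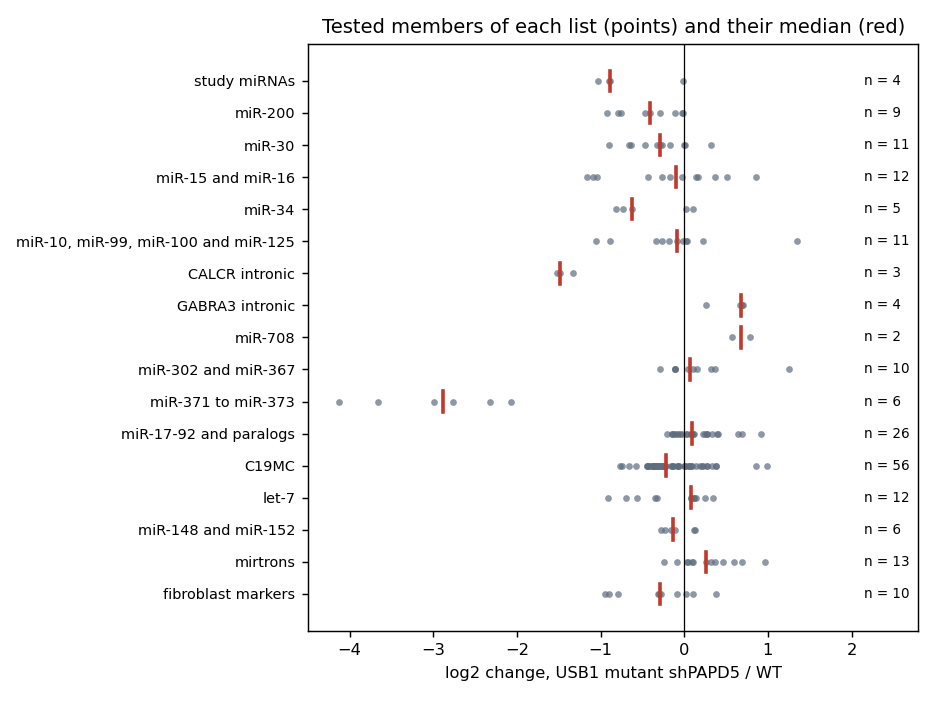
Points are the log2 changes between USB1 mutant shPAPD5 and WT hESCs of the tested members of 17 miRNA lists, and red lines are the list medians. The CALCR intronic list (median −1.48) and the miR-200 list (−0.42) lie below 0, the GABRA3 intronic list (0.68) lies above, and the miR-371 to miR-373 list (−2.88) rests on WT library 1.

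Several other miRNAs were called lower by DESeq2, and these were named after their values were seen. miR-28-5p had 28.9, 24.0 and 27.9 CPM in USB1 mutant shPAPD5 hESCs, against 50.6, 41.3 and 40.5 CPM in WT, a log2 change of −0.71 (edgeR adjusted p = 0.0779). miR-502-3p had 26.6, 22.7 and 25.6 CPM, against 34.7, 34.4 and 34.5 CPM in WT. It and miR-501-3p, which has the same seed and also lies in an intron of CLCN5, had log2 changes of −0.47 and −0.57. For the USB1 mutant against WT, the log2 changes of miR-28-5p, miR-502-3p and miR-501-3p were −0.312, −0.325 and −0.401.

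miR-146a-5p, a miRNA induced by NF-kB that restrains innate immune signalling, had 100.2, 61.0 and 68.2 CPM in USB1 mutant shPAPD5 hESCs, against 351, 115 and 124 CPM in WT. Its log2 change of −1.36 was −0.65 without WT library 1, and in the USB1 mutant against WT it was −1.65. miR-34b-3p, from a hairpin that p53 induces, had 9.76, 9.46 and 10.6 CPM, against 19.8, 15 and 17.7 CPM in WT, a log2 change of −0.82 (edgeR adjusted p = 0.0998). miR-34c-5p, of the same cluster, had a log2 change of −0.62, and both were separated below WT. Of the 5 tested miR-34 members these were the only separated ones, against 10% of all tested miRNAs below WT and 9.32% above. For the USB1 mutant against WT, the log2 changes of miR-34b-3p and miR-34c-5p were −0.58 and −0.72.

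The remaining DESeq2 calls lower in USB1 mutant shPAPD5 hESCs were miR-199b-5p, miR-516a-5p and, at low levels, miR-2113, miR-2682-5p, miR-3117-3p, miR-3529-5p, miR-371b-5p and miR-5091. The count of miR-3529-5p is uncertain, since it shares 20 bases on opposite strands with miR-7-2-3p. The third call higher was miR-135b-3p, with 33.8, 31.9 and 29.8 CPM in USB1 mutant shPAPD5 hESCs, against 22.7, 20.8 and 22.4 CPM in WT. Of the 24 lower calls, 19 were among the 45 miRNAs that edgeR called lower in the USB1 mutant against the same WT libraries. The 3 higher calls were all among the 29 that it called higher there. Over the 24 lower calls the median log2 change was −0.90, and it was −0.63 without WT library 1. Without that library DESeq2 made 3 calls, miR-767-5p higher and miR-2113 and miR-1298-3p lower, 2 of which it also made with all libraries.

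miR-2113 differed by the most among the miRNAs at the lowest edgeR adjusted p. It had 14, 46 and 29 raw counts in USB1 mutant shPAPD5 libraries, against 597, 115 and 123 in WT libraries, or 0.949, 2.43 and 2.13 CPM against 32.4, 7.28 and 8.97 CPM. The groups did not overlap. The log2 change was −3.13 (SE 0.58, 95% interval −4.37 to −1.90, edgeR adjusted p = 0.0509) and −2.14 without WT library 1. The USB1 mutant had 3.41, 6.32 and 6 CPM, so the 3 shPAPD5 libraries also lay below all mutant libraries. miR-4764-5p, the other rare miRNA at that adjusted p, had 15, 25 and 10 raw counts in USB1 mutant shPAPD5 libraries, against 4, 3 and 3 in WT libraries.

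The 5 most abundant miRNAs by mean CPM over the 6 libraries had log2 changes of −0.29 to 0.15 and overlapped between the groups. miR-148a-3p, the first of them, had 192194, 280315 and 322179 CPM in USB1 mutant shPAPD5 hESCs, against 226450, 311648 and 346125 CPM in WT, a log2 change of −0.15 (95% interval −0.78 to 0.47) and of −0.32 without WT library 1. Library 1 of each group was the lowest of its 3. The miR-302 and miR-367 cluster together took 384295 to 444686 CPM in USB1 mutant shPAPD5 hESCs and 435109 to 458404 CPM in WT. Its 10 tested members had a median log2 change of 0.07 (0.11 without WT library 1). Among them 3 were separated above WT and 0 below, against 9.32% and 10% of all tested miRNAs.

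Within that cluster, miR-302b-3p had 126039, 126324 and 109888 CPM in USB1 mutant shPAPD5 hESCs, against 100354, 119725 and 118109 CPM in WT. Its log2 change was 0.10 (95% interval −0.24 to 0.44) and 0.02 without WT library 1, while in the USB1 mutant it had 184416, 149581 and 168164 CPM, above every library of both other groups. miR-302c-3p had 25669, 35168 and 23444 CPM in USB1 mutant shPAPD5 hESCs, against 21249, 22864 and 21335 CPM in WT, and was separated by a narrow margin. miR-302d-3p (log2 change 0.15) and miR-302a-5p (−0.29) overlapped between the groups.

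The miR-371 to miR-373 cluster, whose members miR-372-3p and miR-373-3p share the seed AAGUGCU with miR-302b-3p, had the lowest median of the lists, and it came from 1 library. miR-372-3p had 687, 427 and 542 CPM in USB1 mutant shPAPD5 hESCs, against 6180, 405 and 402 CPM in WT. miR-371a-3p had 25.3, 27.7 and 31.3 CPM, against 523, 24.0 and 25.1 CPM in WT. The shPAPD5 libraries thus lay near WT libraries 2 and 3 and far below WT library 1. The median log2 change of the 6 tested members was −2.88 with all libraries and 0.19 without WT library 1, where 3 of those named here, miR-371a-3p, miR-372-3p and miR-373-3p, had values of 0.19, 0.45 and 0.44. In the USB1 mutant, miR-372-3p had 183, 148 and 135 CPM, below every shPAPD5 library. miR-371a-5p and miR-371b-3p are read from opposite strands of one stretch of 20 shared bases, and miR-371a-3p and miR-371b-5p from those of a stretch of 21. Whether the authors' alignment used strand is not given in the sources used here, so the counts of all 4 are uncertain.

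**Figure D4:**
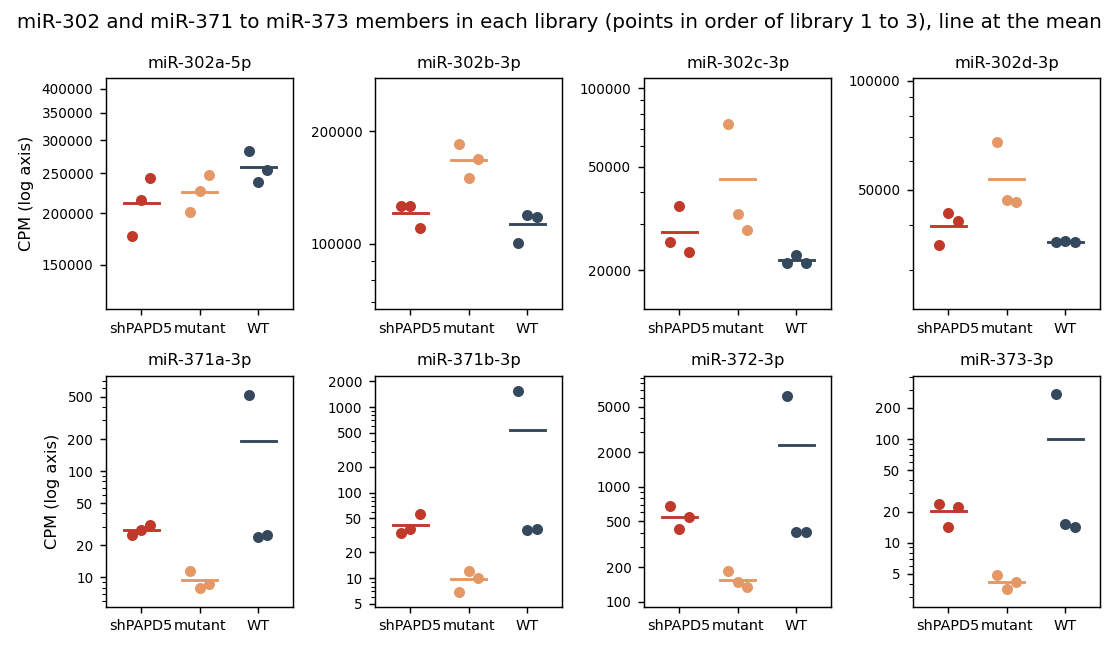
Each panel shows the CPM of 1 miRNA of the miR-302 or miR-371 to miR-373 clusters on a log axis in the 3 libraries of USB1 mutant shPAPD5, USB1 mutant and WT hESCs, with a line at the mean. In the lower panels WT library 1, at 6180 CPM for miR-372-3p, lies far above every other library, and the shPAPD5 libraries lie beside WT libraries 2 and 3.

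The other lists are described by their medians. Their counts of separated members stand beside 9.32% above WT and 10% below over all 998 tested miRNAs. miR-17-92 and its paralogs, known for driving proliferation, had a median of 0.09 (0.15 without WT library 1) over 26 tested members, with 3 separated above WT and 0 below. miR-363-3p had 17670, 14642 and 12430 CPM in USB1 mutant shPAPD5 hESCs, against 6204, 11185 and 11162 CPM in WT, and miR-19a-3p had 88.7, 88.4 and 61.5 CPM, against 30.9, 50.4 and 45.1 CPM. Their log2 changes of 0.65 and 0.92 were 0.41 and 0.73 without WT library 1, the lowest library in both. For the USB1 mutant against WT these log2 changes were 1.02 and 1.39, and for the shPAPD5 cells against the mutant −0.37 and −0.47. The C19MC cluster, a primate-specific cluster known from placenta, had a median of −0.22 over the 56 tested miRNAs of the list used here, and 12 of them were separated below WT and 3 above. Without WT library 1 that median was −0.02. The list leaves out miR-518b, miR-519a-2-5p and miR-520h of this cluster, whose log2 changes were −0.36, −0.52 and −0.08 and whose groups overlapped.

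The let-7 family, which rises as stem cells differentiate, had a median of 0.08 over 12 tested members, which was −0.24 without WT library 1, and 0 separated. let-7a-5p had 1071, 954 and 1383 CPM in USB1 mutant shPAPD5 hESCs, against 801, 1822 and 2404 CPM in WT, with a log2 change of −0.56 (95% interval −1.28 to 0.16) and of −0.90 without WT library 1. The arms of miR-708, from an intron of TENM4, were both separated above WT, with log2 changes of 0.78 for the 5p arm and 0.58 for the 3p arm that were 0.46 and 0.25 without WT library 1. Their median was 0.94 in the USB1 mutant against WT. The list of mirtrons, a class whose hairpins are made by splicing in place of Drosha, had a median of 0.25 over 13 tested members. How each member is made was not tested. Of the 13, 3 were separated above WT, namely miR-1229-3p and both arms of miR-1226, from an intron of DHX30 (log2 change 0.69 for the 3p arm).

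Markers of other cells were present in both groups. The 11 miRNAs of fibroblasts, which feeder cells could bring, summed to 22621 to 24136 CPM in USB1 mutant shPAPD5 hESCs and 23241 to 26101 CPM in WT, nearly all of it miR-21-5p, which stem cells also express. Of the 10 tested, 3 were separated below WT and 0 above, against 10% and 9.32% of all tested miRNAs. Among the 3 was miR-199b-5p, with 62.5, 53 and 47.8 CPM in USB1 mutant shPAPD5 hESCs and 129, 76.7 and 77.5 CPM in WT. miR-143-3p, another of this list, had a log2 change of 0.38 and of 0.76 without WT library 1. The 3 muscle and heart miRNAs summed to 341 to 574 CPM in USB1 mutant shPAPD5 hESCs and 642 to 982 CPM in WT, mostly miR-1-3p, whose log2 change was −0.86 (95% interval −1.57 to −0.14, edgeR adjusted p = 0.281). The 6 blood markers summed to at most 20.9 CPM in USB1 mutant shPAPD5 hESCs and 19.2 CPM in WT. The part of other cells in any difference was not tested.

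The 2 arms of a hairpin are made together but last for different times, so they were also described by rank. In 233 hairpins with both arms tested, the more abundant arms had a median log2 change of −0.04, with 23 separated above WT and 29 below, and the rarer arms had a median of 0.02, with 22 above and 24 below. Over all 998 tested miRNAs, 9.32% were separated above WT and 10% below. Both arms were separated below WT in 8 hairpins and above in 8, and in 0 hairpins did the arms separate in opposite directions. By the last base of the RefSeq mature sequence, the median was −0.03 for the 166 miRNAs ending in A, 0.02 for 173 ending in C, 0.08 for 267 ending in G and 0.00 for 283 ending in U. The counts do not tell reads of a miRNA apart by their 3′ ends, so trimming or added adenosines are not seen in them.

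The USB1 mutant without the hairpins gave the other reference. Against it the shPAPD5 cells had 0 of 998 miRNAs called by edgeR (0.0%), with 43 higher (4.31%) and 73 lower (7.31%) at an unadjusted p under 0.05 and a lowest adjusted p of 0.206. DESeq2 called 9 higher (1.10% of the 815 miRNAs it gave an adjusted p) and 3 lower (0.368%). Of these, miR-1301-3p, from an intron of DNMT3A, had 60.9, 69.1 and 64.8 CPM in USB1 mutant shPAPD5 hESCs, against 33.6, 47.1 and 42.6 CPM in the mutant, and 48.1, 46.3 and 50.7 CPM in WT. miR-203a-3p had 26.9, 26.9 and 26.1 CPM in USB1 mutant shPAPD5 hESCs, against 13.0, 16.4 and 14 CPM in the mutant and 15.5, 27.7 and 23.3 CPM in WT. It shares 21 bases on opposite strands with miR-203b-5p, also called higher, so the counts of both are uncertain. miR-200b-3p and miR-429, described above, were among the 9 as well.

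The same WT libraries served the comparison of the USB1 mutant with WT, so the 2 sets of values below are not independent, and the mutant calls were chosen on the libraries shown. In that comparison edgeR called 29 miRNAs higher (2.91%) and 45 lower (4.51%). The 29 had a median log2 change of 0.58 in USB1 mutant shPAPD5 against WT, of 1.07 in the mutant against WT, and of −0.48 in USB1 mutant shPAPD5 against the mutant. The 45 had medians of −0.88, −1.47 and 0.51 in the same 3 comparisons. Whether the shPAPD5 cells differed less from WT than the mutant did is the comparison of shPAPD5 cells with the mutant, in which edgeR called 0.

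**Figure D5:**
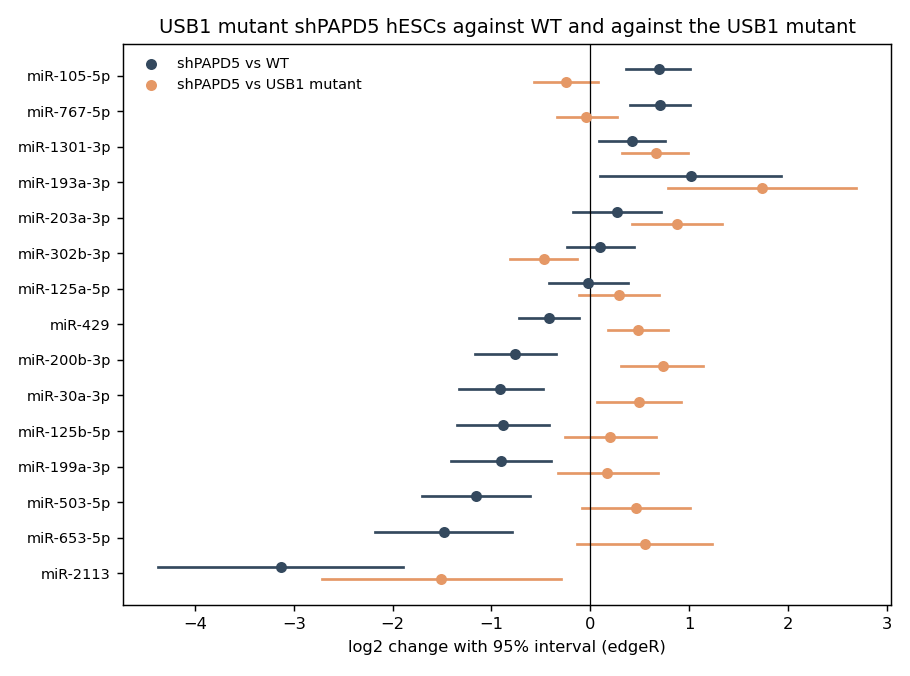
For 15 miRNAs, points are edgeR log2 changes of USB1 mutant shPAPD5 hESCs against WT (dark) and against the USB1 mutant (orange), and bars are 95% intervals. miR-200b-3p and miR-429 lie below 0 against WT and above 0 against the mutant, miR-125b-5p and miR-199a-3p lie below 0 against WT with an interval that holds 0 against the mutant, and miR-2113 lies below 0 in both.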

How the data were processed

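RNA was isolated with Trizol and small RNA libraries were made with a Lexogen kit. Per the authors, reads were trimmed with cutadapt 2.5, aligned to miRBase 22 with Bowtie2 2.2.9 without a seed mismatch and summed with SAMtools 1.3.1. The authors deposited these counts without normalization, a column for each library. A miRNA at 0 in the first column of a table is left out of it, and its counts in the other columns are unknown. Adaptor entries (16 names, 0.00559 to 0.0179% of counts) were removed, and 12 columns of K562 values were not used.

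The 1251 miRNAs listed in every hESC table were filtered with filterByExpr (minimum count 10, minimum total 15), which left 998, holding at least 99.979% of counts. All 15 hESC libraries in 5 groups were fitted with edgeR 4.0.16 (R 4.3.3; TMM, robust quasi-likelihood, no replicate term), and p-values were Benjamini-Hochberg adjusted over all tested miRNAs. DESeq2 1.42.0 was the alternative. Its adjusted p was missing for 106 miRNAs, which stayed missing. Alternatives changed the scaling, the filter, the libraries, the robust option and the replicate term. The main edgeR fit was also run on simulated counts. Those libraries were drawn without a deviation like that of WT library 1, so that run does not bear on its part in the results. Levels are CPM after TMM scaling, and intervals are 95%.

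The members, lists and comparisons were chosen with earlier results of these data known. Named miRNAs follow a rule: those the study followed with their opposite arms, the 12 largest separated calls (there were 0), the 5 most abundant, calls that held in every alternative (0), and for each list described at most 4 members, by adjusted p where called and otherwise by level. The 7 miRNAs at the lowest adjusted p, the DESeq2 calls, miR-200b-5p, miR-19a-3p and miR-371a-5p were named after their values were seen.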

Additional observations from a re-analysis of the deposited data

How the results depend on the processing

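edgeR called 0 miRNAs in either direction against WT under library totals, RLE scaling, no filter, the 6 compared libraries alone, the replicate block and the fit without the robust option. DESeq2 called 3 higher and 24 lower. DESeq2 without WT library 1, an alternative added after seeing the data, called 1 higher and 2 lower. A filter at 10 CPM gave 2 higher, with fewer miRNAs tested. Leaving out 1 library each gave 0 to 0 higher and 0 to 9 lower. The 9 came without WT library 2 and 1 came without WT library 3, settings in which WT library 1 weighs more. Against the USB1 mutant, DESeq2 called 12, library totals 5, the 6 compared libraries alone 4 (miR-371a-3p, miR-371b-3p, miR-372-3p and miR-373-3p), and the other settings 0, leaving out each library included. Library totals put the median of all miRNAs at 0.13 there, against −0.03 with TMM, and at 0.10 against WT.

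Of 789 values of 57 named miRNAs against WT under the alternatives, 18 changed sign. Library totals gave 0.09 and no filter 0.01 for miR-125a-5p, and leaving out libraries gave −0.23 to 0.12. miR-30d-5p was −0.01 with DESeq2 and with RLE scaling, and −0.11 to 0.07 leaving out libraries. miR-148a-3p ran from −0.32 to 0.03 and miR-92a-3p from −0.23 to 0.01. Without WT library 1, miR-371a-5p was 0.10 (otherwise down to −4.67), miR-371a-3p 0.19 (−3.27), miR-371b-3p 0.18 (−4.19), miR-372-3p 0.45 (−2.56) and miR-373-3p 0.44 (−2.82). Against the mutant, miR-767-5p was 0.13 under library totals and −0.06 to 0.03 leaving out libraries. The replicate block left the counts of calls at 0 and 0. Deviations of same-numbered shPAPD5 and WT libraries correlated at −0.0871, 0.00921 and 0.0274, and those of the other pairs at −0.105 to 0.0883. With so few libraries, these values cannot tell whether library numbers pair the samples. With 3 libraries a group, precision was that of the intervals in the report, which widened at low levels.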

Other observations

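miR-675 is made from the imprinted long RNA H19. miR-675-3p had 12, 46 and 22 raw counts in USB1 mutant shPAPD5 libraries and 31, 44 and 15 in USB1 mutant libraries, and it is not listed for WT hESCs, so WT library 1 had 0 counts and the other 2 WT libraries are unknown. miR-675-5p had 45, 87 and 67 raw counts in USB1 mutant shPAPD5 libraries, 79, 122 and 29 in USB1 mutant libraries and 2, 35 and 33 in WT libraries, with WT library 1 the lowest. Listed for every hESC group, it had a log2 change of 1.44 against WT (edgeR adjusted p = 0.504), which was 0.85 without WT library 1, and of 0.18 against the mutant. Of the miRNAs listed for 1 of the 2 groups, 171 were listed for USB1 mutant shPAPD5 hESCs and 251 for WT hESCs.

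Among miRNAs outside the lists, miR-135b-5p, whose opposite arm DESeq2 called higher, had 350, 378 and 212 CPM in USB1 mutant shPAPD5 hESCs, against 153, 184 and 174 CPM in WT, and miR-193a-3p had 3.52, 4.97 and 4.11 CPM, against 1.3, 2.91 and 2.04 CPM in WT. Both were separated above WT. They were chosen after their values were seen. The edgeR log2 changes were 0.88 and 1.02, with adjusted p = 0.320 and 0.328. The 2 differed in the USB1 mutant, whose log2 changes against WT were 1.74 for miR-135b-5p and −0.73 for miR-193a-3p. Against the mutant, the shPAPD5 cells had log2 changes of −0.86 and 1.74, and DESeq2 called miR-193a-3p there.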
